A study of Mus musculus with 3 samples.

Results

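The Egr and Ier genes are immediate early genes, whose transcription starts within minutes of a growth factor or stress signal and needs no new protein. They were examined here in a profile of H3K27ac, the acetylation of lysine 27 on histone H3 that active enhancers and promoters carry. The set holds 6 genes, Egr1, Egr2, Egr3, Ier2, Ier3 and Ier5, and every H3K27ac peak within 100 kb of their gene bodies was taken (GRCm38). That gave 70 of 38793 peaks in the post-caerulein list and 66 of 37765 in the untreated list, 136 of 76558 in all. The post-caerulein library came from pancreatic spheroids, three-dimensional cultures of pancreatic epithelial cells, derived from wild-type C57BL/6J mice after caerulein, a cholecystokinin analogue that causes pancreatitis. The untreated library came from the same kind of culture from mice without caerulein, and the series also holds an input of untreated spheroids. Each condition has 1 H3K27ac library and 1 peak list, which leaves no replicate error to set a difference against, and no test was made. Mouse age and sex, the time between caerulein and harvest, and whether mice were pooled are not given in the sources used here.

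Both cultures shared a medium that acts on immediate early genes, with 20 ng/ml EGF, 100 ng/ml cholera toxin, 0.5 µM hydrocortisone and 25 µg/ml bovine pituitary extract. EGF activates the ERK kinases, which phosphorylate ETS-family cofactors of serum response factor bound at CArG boxes. Cholera toxin raises cyclic AMP, which acts through CREB at cyclic AMP response elements. Egr1, Egr2 and Egr3 encode zinc finger transcription factors that bind the same GC-rich DNA element. Ier2 and Ier5 encode related nuclear proteins, and Ier3 (IEX-1) encodes a small regulator of cell survival and a target of NF-kB. Egr1 is known to be induced in the pancreas during caerulein pancreatitis.

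The ductal markers went with the label of epithelial spheroids, but some immune markers were marked as well. Of 6 ductal markers, 6 had a peak within 1 kb of a gene end in the post-caerulein list and 6 in the untreated list. Acinar markers had none (0 of 6 in each list), nor had 4 endocrine, 4 mesenchymal and 4 endothelial markers. Of 4 immune markers, 3 were marked after caerulein and 2 in untreated spheroids, and their part in the values below was not tested. The lists give no read counts, so depth is unknown and limits above all the weak peaks that only 1 list holds.

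The DNA under the acetylated starts is shown first, because the starts shown, at Egr2, Ier3 and Ier5, lay inside peaks of both lists. The RefSeq promoter sequences at hand (GRCm38.p6) had entries for 3 of the 6 genes, and for Egr2 they give 5 start sites. The promoters of Egr1, Egr3 and Ier2 were therefore not searched. Each line gives the 250 bases before 1 start, 5′ to 3′. Capitals mark CArG boxes, GGGCGG (the Sp1 element) and TGACG (the core of the cyclic AMP response element), on either strand.
Egr2, chr10:67537316-67537565, plus strand: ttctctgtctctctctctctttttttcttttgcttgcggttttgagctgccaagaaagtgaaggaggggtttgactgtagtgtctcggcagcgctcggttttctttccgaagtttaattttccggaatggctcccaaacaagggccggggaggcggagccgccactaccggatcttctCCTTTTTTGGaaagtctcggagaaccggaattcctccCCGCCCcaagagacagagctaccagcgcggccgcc
Egr2, chr10:67537620-67537869, plus strand: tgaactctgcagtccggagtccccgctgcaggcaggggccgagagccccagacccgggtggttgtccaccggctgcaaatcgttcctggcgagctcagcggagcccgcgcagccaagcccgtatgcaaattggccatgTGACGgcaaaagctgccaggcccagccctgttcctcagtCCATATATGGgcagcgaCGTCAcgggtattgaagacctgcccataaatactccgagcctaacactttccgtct
Ier3, chr17:35821463-35821712, plus strand: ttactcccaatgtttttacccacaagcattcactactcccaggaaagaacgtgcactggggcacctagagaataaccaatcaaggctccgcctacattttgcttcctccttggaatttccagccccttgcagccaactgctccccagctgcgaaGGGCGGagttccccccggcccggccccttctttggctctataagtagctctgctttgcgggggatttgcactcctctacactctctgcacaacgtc
Ier5, chr1:155099637-155099886, minus strand: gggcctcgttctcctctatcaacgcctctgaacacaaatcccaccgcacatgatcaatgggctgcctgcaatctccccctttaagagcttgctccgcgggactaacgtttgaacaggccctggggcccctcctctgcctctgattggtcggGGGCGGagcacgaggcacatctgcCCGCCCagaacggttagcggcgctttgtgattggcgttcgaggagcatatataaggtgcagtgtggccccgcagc

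The Egr2 starts held 2 different CArG boxes, each inside the peaks of both lists. The first of these sequences has CCTTTTTTGG at positions -72 to -63 from its start at 67537566, and the second has CCATATATGG at -73 to -64 from its start at 67537870. A CArG box was present in 1.63% of the 32851 mouse promoters of the same table, each searched over 300 bases on both strands. Around the start at 67537870 lay 2 TGACG matches, a motif present in 20.8% of promoters, on either side of the CArG box. The most upstream Egr2 start, at 67535499, lay outside the peaks of both lists. At the 4 other Egr2 starts, the peak began 1774 to 2138 bp upstream after caerulein and 1425 to 1789 bp upstream in untreated spheroids. Ier3 had 1 GGGCGG match and Ier5 had 2, a motif of 35.7% of promoters, and neither had a CArG box in its window. The motifs TGACGTCA, TGANTCA, GCGGGGGCG and TATAAA had no match in the windows of the 3 genes. GGAA, the ETS core, was present in 96% of promoters and in all the windows of the 3 genes, and the CArG box CCTTTTTTGG overlaps 1 such match. A match describes the sequence only.

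Peaks lay over the bodies of the same genes in both conditions. Peaks of both lists overlapped Egr1, Egr2, Ier2, Ier3 and Ier5, 5 of the 6 genes, against 68.6% of 18328 protein-coding genes with a peak within 100 kb in either list. Egr3 had no peak over its body in either list. In a bulk profile, acetylation in fewer cells and less acetylation per cell cannot be told apart.

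At Egr1 (chromosome 18, 34861207 to 34864956), 1 peak lay over the gene in each list. It was 4.59 kb wide after caerulein, against 5.37 kb wide in untreated spheroids, and it covered 64.4% of the gene body after caerulein and 81.2% in untreated spheroids. The lower-coordinate edges lay 2173 bp (post-caerulein) and 2328 bp (untreated) before the gene, so most of the difference came from the other edge, inside the gene. By the authors' score the peak stood above 69.5% of the post-caerulein list and 67.8% of the untreated list, positions that hold within each list only.

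At Egr2 (chromosome 10, 67534469 to 67542188), known for hindbrain patterning and Schwann cell myelination, the peak was narrow. It was 2.50 kb wide after caerulein, against 2.26 kb wide in untreated spheroids, and covered 32.4% of the gene after caerulein, against 29.3% in untreated spheroids. The score stood above 56.1% of peaks in the post-caerulein list and above 44.8% in the untreated list. Egr2 thus had a mid-ranked peak at the gene in each list, over the CArG-bearing starts shown above.

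At Egr3 (chromosome 14, 70077317 to 70082613), a gene known from muscle spindle development and lymphocyte activation, the nearest post-caerulein peak lay 16334 bp away, over the neighbouring gene Bin3. The nearest untreated peak lay 1770 bp from the gene. That untreated peak was 1.31 kb wide with a score of 89.92, above 12.5% of its list, and the nearest post-caerulein peak lay 16087 bp from it. Close to Egr3, acetylation was thus called as 1 weak peak of the untreated list. Counted within 5 kb of the gene alone, Egr3 was past 1.5-fold lower in covered length after caerulein (0 kb, against 1.31 kb in untreated spheroids; log2 ratio -1.21), as were 7.02% of 14226 genes with a peak that close.

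The 3 Ier genes lay inside wide domains and were covered over their whole length in both lists. Over Ier2 (chromosome 8, 84661331 to 84662852) the peak was 11.5 kb wide after caerulein, against 10.9 kb in untreated spheroids. Over Ier3 (chromosome 17, 35821713 to 35822911) it was 18.6 kb wide after caerulein, against 18.4 kb in untreated spheroids, and it also covered part of Flot1, whose body begins 409 bp from Ier3. Ier2 and Ier3 peaks all had the score 3100, at which the scores of both lists pile up, so their strength cannot be ranked further. These widths exceeded those of 96.4% (Ier2) and 98.8% (Ier3) of post-caerulein peaks, and those of 96.2% (Ier2) and 98.9% (Ier3) of untreated peaks.

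Over Ier5 (chromosome 1, 155096367 to 155099636) the widths looked different, at 19.9 kb after caerulein, against 31.9 kb in untreated spheroids. The untreated peak was met by 2 post-caerulein peaks, of 11.7 and 19.9 kb, set apart by a gap of 114 bp. The untreated peak and the 11.7 kb peak had the score 3100. The 19.9 kb peak, over the gene, had 1660.17, above 72.2% of its list. With peaks of both lists joined within 2 kb, a step chosen after the peaks had been seen, the Ier5 domain spanned 51.8 kb (155048628 to 155100458). Of it, 51.0 kb was covered after caerulein by 4 peaks and 50.0 kb in untreated spheroids by 2 peaks. The same step gave a span of 33.0 kb at Ier3, with 31.4 kb covered after caerulein, against 28.6 kb in untreated spheroids. At Ier2 it gave 14.3 kb, with 13.3 kb covered after caerulein, against 10.9 kb in untreated spheroids. The Ier5 widths thus differed with how the domain was divided into peaks, and its covered length was nearly equal.

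**Figure D1:**
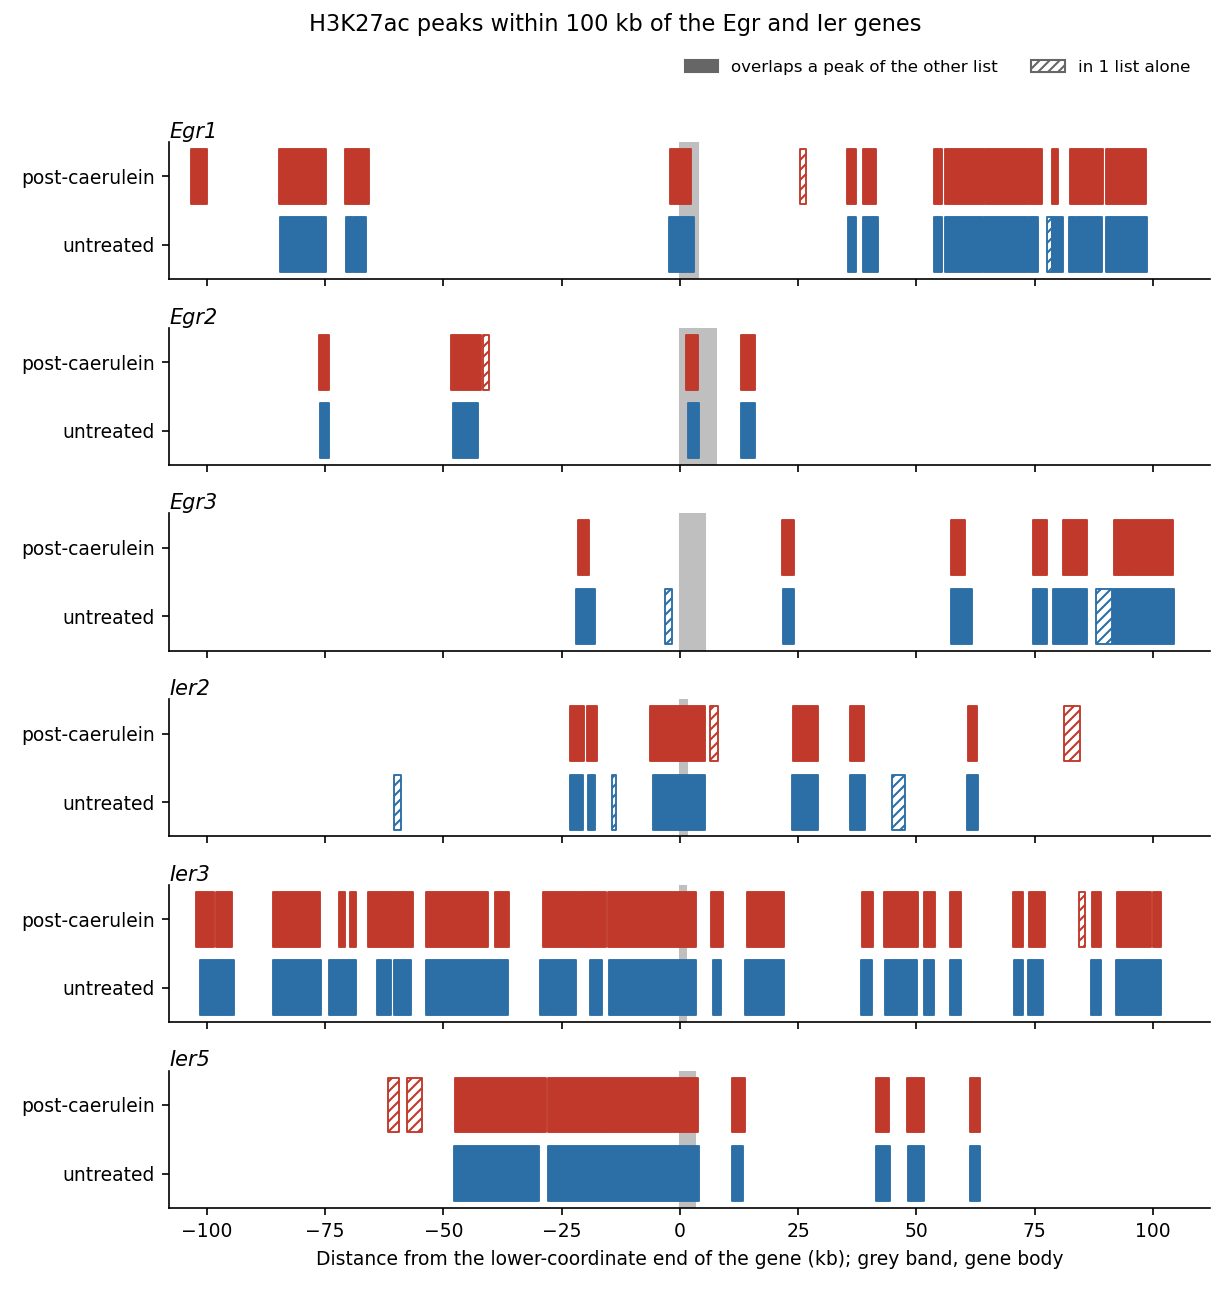
H3K27ac peaks of the post-caerulein list (red, upper row) and the untreated list (blue, lower row) around each gene. The x axis gives distance in kb from the gene's lower-coordinate end, the grey band is the gene body and hatched peaks overlap no peak of the other list. Filled peaks lie over 5 of the 6 genes in both lists, Egr3 has none in either, and the hatched peaks are few and mostly away from the genes. The narrowest gaps between peaks are not visible at this scale.

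Across the 100 kb windows, the covered length differed by less than 1.5-fold at all 6 genes. The call of 1.5-fold was made on log2 ratios with a pseudocount of 1 kb. Of all 18328 genes with a peak in the window, 6.25% were at least 1.5-fold higher after caerulein and 6.00% at least 1.5-fold lower, so 0 of 6 is close to what the background gives. The median log2 ratio of the 6 genes was 0.03, against 0.01 for all genes. Of the 6 ratios, 4 were above 0, as were 9701 of the 18328 over all genes.

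Egr1 had 63.8 kb covered after caerulein, against 64.1 kb in untreated spheroids (log2 ratio -0.01), of which 59.7 kb was covered in both. Ier3 had 115.1 kb after caerulein, against 113.7 kb in untreated spheroids (log2 ratio 0.02), with 105.1 kb in both. Ier2 had 31.9 kb after caerulein, against 31.1 kb in untreated spheroids (log2 ratio 0.04), with 25.3 kb in both. These 3 genes had near-equal covered length in the 2 conditions, and Ier3 had more of it than 99.3% of genes after caerulein and 99.4% in untreated spheroids.

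Ier5 had 67.4 kb covered after caerulein, against 60.9 kb in untreated spheroids (log2 ratio 0.15). Its difference lay on the lower-coordinate side, with 52.5 kb after caerulein, against 45.9 kb in untreated spheroids, whereas the other side had 11.6 kb after caerulein, against 11.7 kb in untreated spheroids. Egr2 had 15.2 kb after caerulein, against 12.3 kb in untreated spheroids (log2 ratio 0.29). At Egr2 almost all of the untreated length was also covered after caerulein, with 3.09 kb covered after caerulein alone and 0.176 kb in untreated spheroids alone.

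Egr3 had the lowest ratio of the 6, with 28.4 kb covered after caerulein, against 38.7 kb in untreated spheroids (log2 ratio -0.43). Only 0.435 kb was covered after caerulein alone, and 10.7 kb in untreated spheroids alone. Of all genes, 8.83% had a lower ratio, so the value is not rare among genes. Within 25 kb of the gene, 5.02 kb was covered after caerulein, against 7.645 kb in untreated spheroids (log2 ratio -0.52). Most of the covered length lay beyond 25 kb, with 23.3 kb after caerulein, against 31.0 kb in untreated spheroids. That stretch holds Bin3, Ccar2, Pdlim2, a PDZ and LIM domain protein gene, and Sorbs3, an adaptor protein gene.

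**Figure D2:**
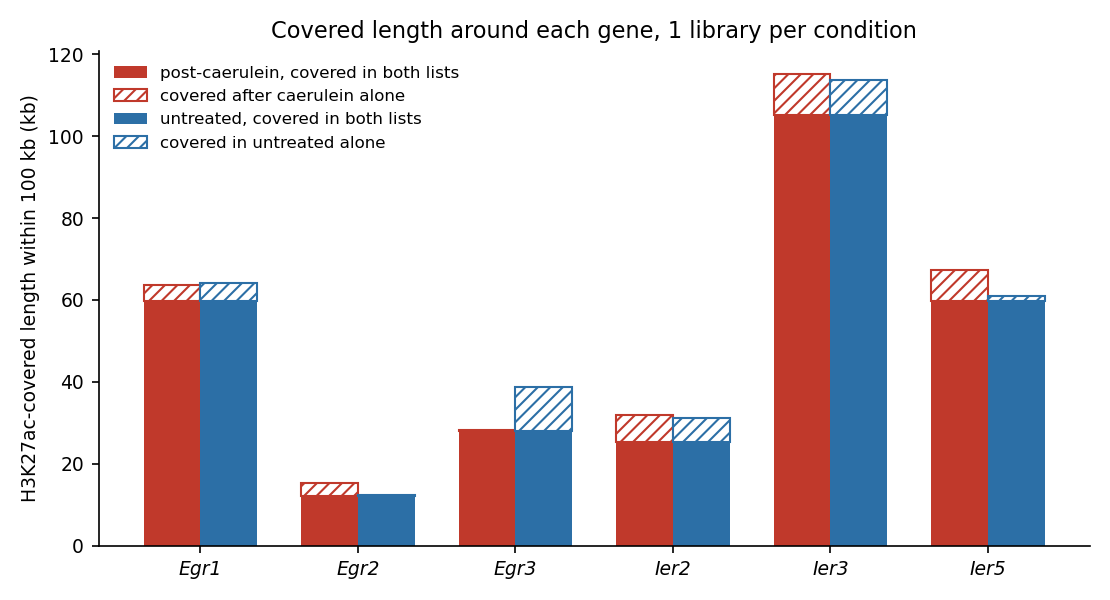
H3K27ac-covered length within 100 kb of each gene in kb, with the post-caerulein library on the left of each pair and the untreated library on the right. Solid parts are bases covered in both lists and hatched parts are bases covered in 1 list alone. The solid parts make up most of every bar, and the hatched part is largest at Egr3 in untreated spheroids (10.7 kb).

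The share of bases covered in both lists, out of those covered in either, was 87.6% at Egr1, 78.8% at Egr2 and 71.4% at Egr3. It was 67.1% at Ier2, 85.0% at Ier3 and 87.0% at Ier5, and the median over all genes was 76.9%. Egr1, Egr2, Ier3 and Ier5 lay above that median, and Egr3 and Ier2 below it.

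Few peaks near the genes were found in 1 list alone. They were 7 of the 70 post-caerulein peaks (10%, exact 95% interval 4.12 to 19.5) and 6 of the 66 untreated peaks (9.09%, 3.41 to 18.7). Across the whole lists, 17.5% of post-caerulein peaks and 14.3% of untreated peaks had no overlap in the other list. Both intervals hold the whole-list value, and they cover counting error over peaks only, although neighbouring peaks are not independent. At least 1 post-caerulein-only peak lay near 5 of the 6 genes, against 54.3% of all genes, and at least 1 untreated-only peak near 3 of the 6, against 52.2%. The windows of the 6 held a median of 9 peaks in each list, against 7 over all genes, so these shares are not like for like.

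A gene of the set was the nearest gene of 3 post-caerulein-only peaks, 2 at Ier5 and 1 at Egr2. At Ier5, peaks of 2.36 kb (score 251.14, above 36.2% of its list) and 3.00 kb (score 201.85, above 31.8%) lay 59354 and 54610 bp from the gene, beyond the wide domain. The nearest untreated peak lay 6871 bp from the second and 11615 bp from the first. At Egr2 a peak of 1.24 kb (score 118.38) lay 40358 bp from the gene. It adjoined a shared peak that was itself wider after caerulein (6.44 kb) than in untreated spheroids (5.28 kb), and it lay 1135 bp from the untreated partner of that peak. The Ier5 pair thus lay farther from untreated peaks than the Egr2 peak did.

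Near Ier2 the peaks of 1 list alone went both ways and had neighbours of Ier2 as their nearest genes. A post-caerulein-only peak of 1.71 kb (score 149.78) lay 4745 bp from Ier2 and 1173 bp from Nacc1, a BTB-domain transcriptional regulator gene. A post-caerulein-only peak of 3.41 kb (score 118.42) and an untreated-only peak of 2.88 kb (score 1181.69) both lay over Nfix, a nuclear factor I transcription factor gene. The untreated-only peak over Nfix stood above 59.4% of its list and was the 1 peak found in a single list near any of the 6 genes with a score above its list's median. Over Cacna1a, a calcium channel gene, lay an untreated-only peak of 1.48 kb (score 96.70), and another of 0.878 kb (score 52.35) had Cacna1a as its nearest gene.

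The remaining peaks of 1 list alone were weak or adjoined shared peaks. Near Egr1, a post-caerulein-only peak of 1.11 kb (score 64.89) had Etf1, a translation termination factor gene, as its nearest gene. An untreated-only peak of 0.932 kb (score 60.89) lay over Hspa9, a mitochondrial chaperone gene, 102 bp from a post-caerulein peak. Near Ier3, a post-caerulein-only peak of 1.39 kb (score 76.47) lay over Atat1, a tubulin acetyltransferase gene. Near Egr3, an untreated-only peak of 3.46 kb (score 420.02) lay over Pdlim2, 472 bp from a post-caerulein peak. The median score was 526.37 in the post-caerulein list and 681.38 in the untreated list.

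Most peaks in the windows were closer to other genes. The set's own gene was the nearest protein-coding gene for 20 of the 70 peaks after caerulein and 15 of the 66 in untreated spheroids. Egr2 and Ier5 stand in sparse surroundings, with 1 and 2 other protein-coding genes within 100 kb, and Ier3 in a dense one, with 10. Egr2 was the nearest gene of 4 of 5 post-caerulein and 3 of 4 untreated peaks, and Ier5 of 7 of 10 post-caerulein and 3 of 6 untreated peaks. Egr1 was nearest to 1 of 15 peaks in each list, and most acetylation of its window lay over Kdm3b, Etf1 and Hspa9. At the edge of the window, an Egr1 peak of the post-caerulein list over Fam53c lay just inside, at 99998 bp (score 3100), and its untreated partner just outside, at 100238 bp (score 3100). The nearest peak outside any window was a post-caerulein peak 100045 bp from Ier5 (score 684.56).

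Peaks that matched 1 to 1 between the lists showed how single elements differed. Of 46 such pairs, 24 were wider after caerulein (52.17%) and 22 in untreated spheroids, with a median log2 width ratio of 0.01. Over all 27197 pairs, 55.4% were wider after caerulein and the median was 0.03. Past 1.5-fold, 3 pairs were wider after caerulein, where the background is 8.58%, and 3 were narrower, where it is 5.65%. Among the pairs wider after caerulein were 2 on the lower-coordinate side of Ier3. The nearer was 5.84 kb wide after caerulein, against 2.64 kb in untreated spheroids, and the farther was 5.28 kb wide after caerulein, against 2.91 kb in untreated spheroids. The nearer one has Ier3 as its nearest gene and belongs to the joined domain of 33.0 kb. At Egr3, 5 of 7 pairs were narrower after caerulein and 2 of them past 1.5-fold. These were a peak over Pebp4, 2.48 kb wide after caerulein, against 4.04 kb in untreated spheroids, and a peak over Bin3, 2.84 kb wide after caerulein, against 4.40 kb in untreated spheroids. By score, the Pebp4 peak stood above 46.7% of the post-caerulein list (score 433.87). Its untreated score, 3178.97, lay past 3100, the score at which both lists pile up and which stands above 77.65% of the untreated list. Its strength cannot be ranked within that pile-up, so its position is given only as above 77.65%. The Bin3 peak stood above 51.5% of the post-caerulein list and 65.7% of the untreated list. The other pairs past 1.5-fold were 2 over or next to Hspa9 in the Egr1 window, 1 in each direction.

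**Figure D3:**
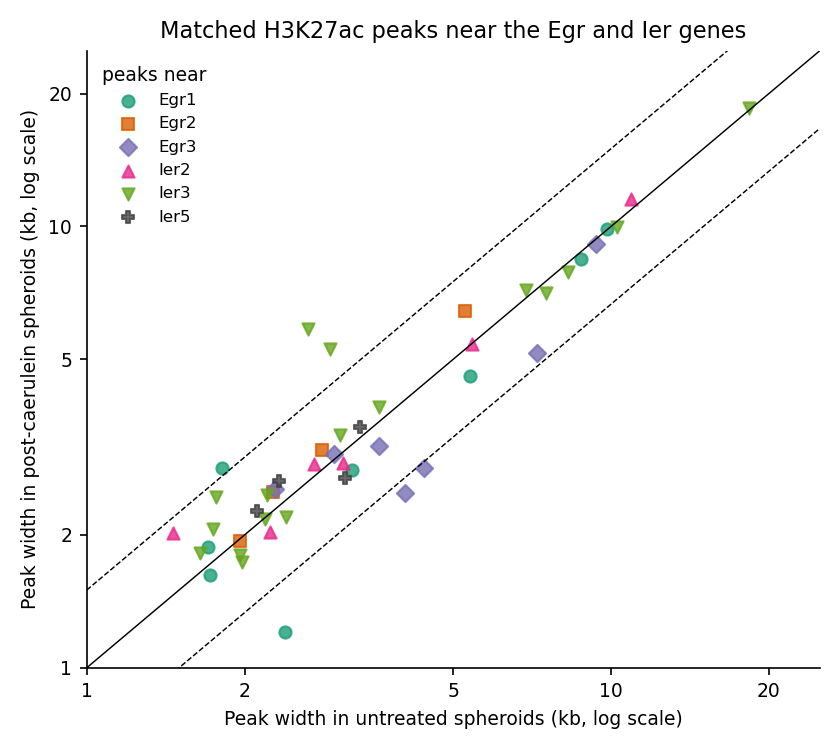
Width of each of the 46 peaks matched 1 to 1 near the 6 genes, in post-caerulein spheroids (y axis, kb, log scale) against untreated spheroids (x axis, kb, log scale). The solid line marks equal width and the dashed lines 1.5-fold. Most pairs lie between the dashed lines, with 3 pairs above and 3 below them.

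The other genes of the immediate early response were described from a list of 51, chosen with earlier results of these data known. It holds AP-1 subunits, Klf and Nr4a factors, feedback inhibitors such as the Dusp phosphatases, and regulators and cofactors of the Egr proteins and of serum response factor. Their gene bodies were overlapped by a peak in both lists for 48 of 51, against 68.6% of all genes. They were overlapped in neither list for 3, against 5010 of all 18328 genes. At least 1 post-caerulein-only peak lay near 35 of 51, against 54.3% of all genes, and at least 1 untreated-only peak near 28, against 52.2%. These shares are not like for like, because windows with more peaks have more room for such a peak. The windows of the 51 held a median of 12 post-caerulein and 11 untreated peaks, against 7 and 7 over all genes. Post-caerulein-only peaks outnumbered untreated-only peaks at 28 genes, were fewer at 12 and equal at 11. Over all 18328 genes these counts were 6554, 5864 and 5910. The difference was not tested. In covered length 3 of 51 were at least 1.5-fold higher after caerulein and 0 at least 1.5-fold lower, where the background is 6.25% and 6.00%. The median log2 ratio was 0.04, and 29 of 51 were above 0, against 9701 of all 18328 genes. The 3 were Ccn1 (a matricellular protein; 39.4 kb after caerulein, 22.4 kb in untreated spheroids), Zfp36l1 (an mRNA decay factor; 66.7 kb after caerulein, 38.6 kb in untreated spheroids) and the kinase gene Sgk1 (70.0 kb after caerulein, 43.2 kb in untreated spheroids). Their log2 ratios were 0.79, 0.77 and 0.68, above those of all 6 Egr and Ier genes. Among the genes tied most directly to the Egr proteins, the corepressor genes Nab1 and Nab2 had log2 ratios of -0.05 and -0.14, Egr4 had -0.11 and the regulator gene Srf had 0.08. All 4 were named after their values were seen.

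**Figure D4:**
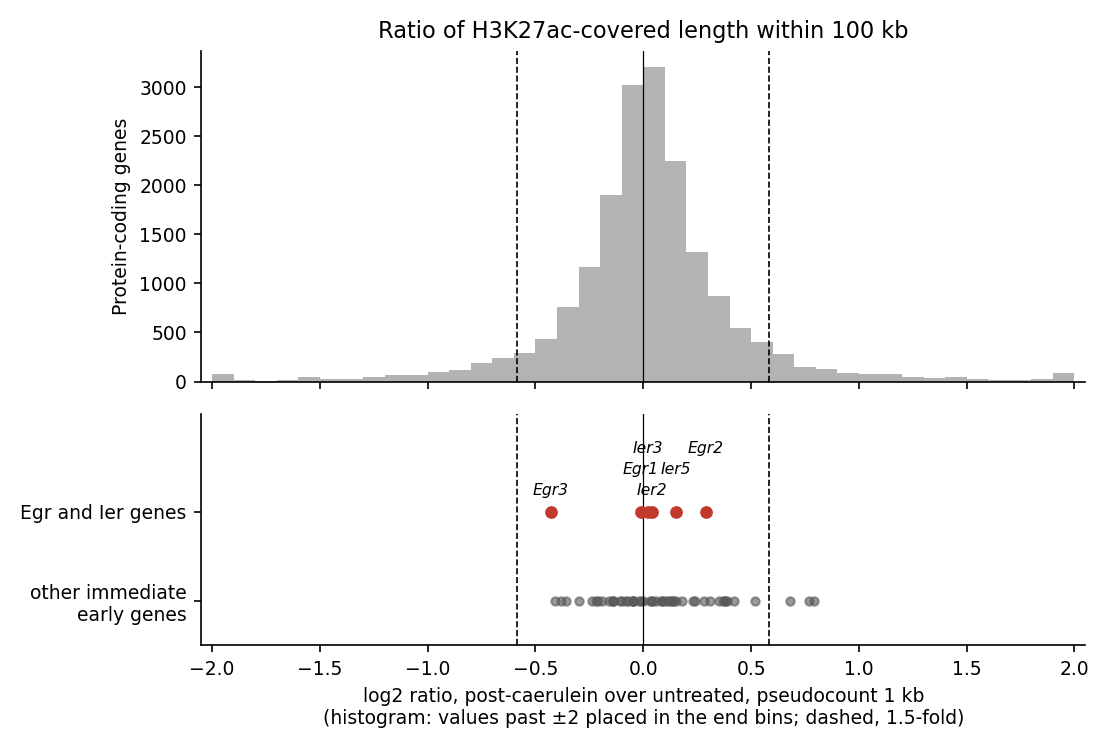
Log2 ratio of covered length within 100 kb, post-caerulein over untreated (x axis), for all 18328 genes as a histogram (upper panel) and for the 6 Egr and Ier genes and 51 other immediate early genes as points (lower panel). Dashed lines mark 1.5-fold. The 6 genes lie between -0.43 (Egr3) and 0.29 (Egr2), inside the dashed lines, and 3 of the other genes lie beyond the upper one.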

How the data were processed

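H3K27ac chromatin immunoprecipitation was deposited as 1 peak list per library, with positions and a score per peak. Per the submitters' processing notes, the tools were Trimmomatic 0.38, Bowtie2 2.2.6, SAMtools and MACS 1.4, and the builds GRCm38 and mm10 are named. The caller's options and control library are not given in the sources used here. The deposited score (50.0 to 3233.06, no unit stated) served to order and filter the peaks of each list on its own.

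Genes came from RefSeq (GRCm38.p6; 21883 protein-coding genes, of which 18328 had a peak within 100 kb). Peaks shared at least 1 bp to overlap, checked against bedtools 2.31.1, and the code was tested on simulated data. Covered length was clipped to the window. No test was possible with 1 library per condition; intervals are exact (Clopper-Pearson, 95%) and cover counting error only. The 6 genes, the lists and the 1.5-fold limit were chosen with earlier results of these data known. Named genes were the 6, their neighbours, genes nearest to peaks of 1 list alone, and up to 4 other immediate early genes per direction past 1.5-fold. Alternatives changed the overlap, score limit, peak merging, window and pseudocount. Start sites were available for 3 of the 6 genes.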

Additional observations from a re-analysis of the deposited data

How the results depend on the processing

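Most peaks of 1 list alone were weak or far from the 6 genes. Held to the median score of their list, 0 peaks of the post-caerulein list alone and 1 of the untreated list alone were left. Within 50 kb of the genes there were 3 post-caerulein-only and 3 untreated-only peaks, and 3 post-caerulein-only and 1 untreated-only among peaks nearest to the gene itself. The other overlap, merging and equal-number settings gave 6 to 9 post-caerulein-only and 4 to 7 untreated-only peaks. The number of genes past 1.5-fold was 0 in every setting but the 5 kb window, where it was 1: Egr3, with a log2 ratio of -1.21. The ratio of Egr2 was above 0 and that of Egr3 below 0 in all 8 alternatives (0.10 to 0.52 and -1.21 to -0.39). Egr1, Ier2, Ier3 and Ier5 took both signs, within -0.19 to 0.16. Merging peaks within 1 kb widened the post-caerulein peak to 51.4 kb over Ier5 and 32.3 kb over Ier3, and left the untreated peaks at 31.9 and 18.4 kb. No paired analysis was possible because there is a single library for each condition, and no replicate exists to leave out.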

Other observations

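Among the 51 other immediate early genes, the 1 with the covered lengths most like each gene was found by the Euclidean distance of log2(covered kb + 1), over 2 libraries only. Ier5 was most like Junb, an AP-1 subunit gene, which had 69.5 kb covered after caerulein, against 63.2 kb in untreated spheroids (distance 0.068). Ier3 was most like the phosphatase gene Dusp1, with 113.3 kb after caerulein, against 106.3 kb in untreated spheroids (distance 0.098). Egr1 was most like Elk3, a cofactor gene of serum response factor, with 64.5 kb after caerulein, against 66.8 kb in untreated spheroids (distance 0.061). Egr2 was closest to Klf2 (16.6 kb after caerulein, against 14.9 kb in untreated spheroids, distance 0.280). Egr3 and Ier2 were both closest to the prostaglandin synthase gene Ptgs2 (33.4 kb after caerulein, against 34.8 kb in untreated spheroids, distances 0.275 and 0.168).

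CArG boxes were searched in the RefSeq promoters of the other immediate early genes as well, over 250 bases before and 50 after each start. Boxes farther from a start were not searched for. Of 44 with an entry, 3 had one, at Dusp5, Srf and Zfp36, and 5 had TGACGTCA, at Btg2, Dusp1, Errfi1, Maff and Plk2, a motif of 1.79% of all promoters. Several genes have more than 1 entry, so these counts per gene and the shares per promoter have different bases.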
